A study of Mus musculus with 9 samples.

Results

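The genes described here encode 10 subunits of the SWI/SNF (BAF) chromatin remodelling complexes: the ATPases Smarca2 and Smarca4, the core subunits Smarcb1, Smarcc1 and Smarcd3, the BAF subunits Arid1a, Arid1b and Dpf3, and the PBAF subunits Arid2 and Pbrm1. Every ATAC-seq peak whose centre lay inside one of these genes, or within 30 kb of either end, was taken, which gave 193 of the 146,734 peaks in the deposited table. All 193 passed the filter on low values, a mean of at least 10 normalised reads over the 9 libraries. Arid1b had 37 of these peaks, Arid2 29, Pbrm1 23, Smarca4 20, Smarcb1 and Smarcd3 17 each, Arid1a and Dpf3 16 each, Smarcc1 13 and Smarca2 5. Of the 193, 19 overlapped the stretch within 1 kb of a gene end, 105 lay elsewhere inside the gene and 69 in the flanks. Because the windows are wide, 47 peaks also lay in or at another protein-coding gene, and assignment to a subunit gene is by position only.

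The cells were D2A1-d, a mouse breast carcinoma line, transduced with a non-targeting control hairpin (NTC, labelled wild type) or with 1 of 2 short hairpin RNAs against Med4, shMed4 #1 or shMed4 #4 (labelled as Med4 knockdown). There were 3 libraries in each of these 3 groups, which the labels number as biological replicates and describe as untreated apart from the hairpin. Med4 encodes a subunit of Mediator, and the study's title places it in metastatic dormancy. All groups share the cell line and the transduction, both hairpin groups share the same NTC libraries as their control, and no source used here says whether replicates were separate transductions.

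SWI/SNF complexes use the energy of ATP to slide and evict nucleosomes, and so keep enhancers and promoters accessible to transcription factors. Each complex holds 1 ATPase, Smarca4 (BRG1) or its paralog Smarca2 (BRM), on a shared core. It then becomes canonical BAF through an Arid1 subunit and a Dpf subunit, or PBAF through Arid2 and Pbrm1. Several of the genes, among them Arid1a, Smarca4, Smarcb1 and Pbrm1, are tumour suppressors in human cancer. ATAC-seq reads at these genes report how open the genes' own regulatory DNA was. They measure neither the amount of the proteins nor where the complexes acted.

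Libraries held 44.8 to 98.9 M reads in peaks, and every pair of libraries differed by more than sampling noise. Levels below are normalised reads per peak. Every peak spans 501 positions as named in the deposited table, so levels of different peaks are compared at equal length. Log2 folds are differences of log2(normalised reads + 1), with a standard error (SE) and a Benjamini-Hochberg adjusted p from limma over all 146,729 tested peaks, and a peak is called higher or lower at an adjusted p under 0.05. Errors on levels are SD with n = 3 libraries. Of the cell type markers, Vim, an intermediate filament gene of mesenchymal cells, had a strong gene-end peak in NTC (4155 normalised reads), as did Twist1 (1883), while that of Zeb1 (186) was near the middle of all peaks. The keratin genes Krt8 (929), Krt14 (344) and Krt18 (164) had gene-end peaks too, and the epithelial genes Epcam and Cdh1 had none. No gene-end peak was found at Ptprc, Cd3e or Pecam1, while those of Cdh5 (239) and Rbfox3 (64.5) were present, so marker genes of other cell types were not uniformly without one. Marker peaks moved with the hairpins as well: over both hairpins Krt18 (log2 fold 1.33), Krt14 (0.79) and Cdh5 (0.55) were called higher, and Vim (-0.43), Twist1 (-0.36) and Krt8 (-0.12) lower, while Zeb1 (0.00) and Rbfox3 (0.19) were not called. Their part in the values of the subunit genes was not tested.

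The promoter sequences of 9 of the 10 genes are in RefSeq's table of mouse promoter windows (GRCm38.p6, the files' build), each 250 bases before to 50 bases after a start; Arid1a has a pair of such windows. Printed first are the promoters of the 4 genes whose start peak was called lower with the Med4 hairpins, then 2 whose start peak was not called, Arid1a and Smarca2, for contrast. They were chosen after the values had been seen. Capitals mark GGGCGG (the GC box bound by Sp factors), CCAAT (the CCAAT box bound by NF-Y), CCGGAA (the ETS core) and TGAGTCA (the AP-1 site), each on either strand. The windows are chr12:83487687-83487986 on the minus strand (Dpf3), chr14:31018888-31019187 on the plus strand (Pbrm1), chr9:110131774-110132073 on the plus strand (Smarcc1), chr9:21615919-21616218 on the plus strand (Smarca4), chr4:133756720-133757019 on the minus strand (Arid1a) and chr19:26604910-26605209 on the plus strand (Smarca2).
Dpf3: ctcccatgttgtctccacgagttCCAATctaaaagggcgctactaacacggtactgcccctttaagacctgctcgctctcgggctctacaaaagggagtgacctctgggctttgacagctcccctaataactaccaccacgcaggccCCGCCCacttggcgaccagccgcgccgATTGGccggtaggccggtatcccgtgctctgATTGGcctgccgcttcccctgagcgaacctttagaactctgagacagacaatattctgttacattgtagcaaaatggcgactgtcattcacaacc
Pbrm1: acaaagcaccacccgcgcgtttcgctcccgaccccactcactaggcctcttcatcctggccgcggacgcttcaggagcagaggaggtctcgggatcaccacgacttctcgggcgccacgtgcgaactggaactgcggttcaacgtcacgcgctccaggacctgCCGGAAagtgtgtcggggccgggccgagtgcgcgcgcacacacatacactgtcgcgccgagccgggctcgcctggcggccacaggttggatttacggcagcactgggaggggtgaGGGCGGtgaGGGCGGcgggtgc
Smarcc1: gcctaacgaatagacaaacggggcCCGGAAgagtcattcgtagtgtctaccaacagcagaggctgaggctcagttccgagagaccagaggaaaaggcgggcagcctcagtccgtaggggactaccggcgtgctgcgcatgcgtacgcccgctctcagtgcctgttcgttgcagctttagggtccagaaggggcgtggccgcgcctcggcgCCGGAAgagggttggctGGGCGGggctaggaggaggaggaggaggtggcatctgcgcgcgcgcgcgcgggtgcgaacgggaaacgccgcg
Smarca4: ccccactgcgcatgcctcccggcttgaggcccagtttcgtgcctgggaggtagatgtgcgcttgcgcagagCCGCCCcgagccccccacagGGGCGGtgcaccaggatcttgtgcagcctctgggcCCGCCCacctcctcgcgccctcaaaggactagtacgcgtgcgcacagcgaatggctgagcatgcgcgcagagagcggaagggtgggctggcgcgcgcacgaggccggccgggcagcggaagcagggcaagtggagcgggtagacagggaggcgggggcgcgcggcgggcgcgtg
Arid1a: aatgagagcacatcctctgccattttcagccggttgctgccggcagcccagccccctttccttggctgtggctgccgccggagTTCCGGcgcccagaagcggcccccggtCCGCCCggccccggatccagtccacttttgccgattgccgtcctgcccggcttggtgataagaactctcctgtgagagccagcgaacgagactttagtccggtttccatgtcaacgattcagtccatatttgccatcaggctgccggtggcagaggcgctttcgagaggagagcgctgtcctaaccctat
Smarca2: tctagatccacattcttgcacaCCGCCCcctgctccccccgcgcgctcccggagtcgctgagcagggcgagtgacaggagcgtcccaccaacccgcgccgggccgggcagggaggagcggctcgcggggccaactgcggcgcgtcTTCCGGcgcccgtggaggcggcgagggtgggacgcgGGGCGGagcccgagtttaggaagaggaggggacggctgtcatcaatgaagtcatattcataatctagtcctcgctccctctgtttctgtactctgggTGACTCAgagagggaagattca

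All 10 member windows held GGGCGG, against 46.2% of 21,263 protein-coding windows of the same length. They were GC-rich, with a median of 33 CG dinucleotides per window against 13 over all windows, and a GC content of 55.3% to 79.7% (median 67.0% against 56.3%). Dpf3 stood at the low end of both ranges and was the only member whose window held CCAAT, which it carried 3 times; 38.2% of all windows held that motif. CCGGAA was present in 4 of 10 member windows (18.7% of all), once each at the printed Arid1a window, Pbrm1 and Smarca2 and 2 times at Smarcc1. TGAGTCA was found at Smarca2 and Smarcb1 (4.66% of all windows) and CACGTG, the E-box, at Pbrm1 alone (7.84%). TATAAA, the TATA box, and the palindromic NRF1 motif were in none of the member windows, against 12.6% and 1.33% of all windows. Such letter matches describe the sequence and do not show that a factor binds there.

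Most peaks at the subunit genes, 119 of 193, were not called when the Med4 hairpins were set against NTC. Of the 193, 32 were called higher and 42 lower in the mean of both hairpins against NTC, while 27.9% and 26.2% of all tested peaks were called higher and lower, 54.1% in all. At least 1.5-fold changes were scarcer: 12 member peaks were higher by that much (13.5% of all tested peaks) and 5 were lower (6.25%). The median log2 fold was -0.07, against -0.02 over all tested peaks, and member peaks ranged from -0.95 to 1.17. All 6 hairpin libraries lay above all 3 NTC libraries at 20 member peaks and below them at 27 (19.0% and 16.5% of all tested peaks), and the groups overlapped at the other 146. The split of calls moved with the scaling: it was 47 higher and 18 lower with centring on gene-end peaks, 29 higher and 53 lower with centring on the remaining peaks, and 29 higher and 52 lower with equal totals. Shares of all tested peaks under these scalings are not given here, so these counts cannot be read as particular to the subunit genes. Centring on gene-end peaks moved all log2 folds over both hairpins up by the same amount, which took the Smarca4 window from -0.036 to 0.069. The median log2 fold of all gene-end peaks before that centring was -0.115.

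The member peaks were typical in level, with a median NTC level of 186 normalised reads against 184 over all tested peaks. Among the 98 member peaks with under 200 normalised reads in NTC, 15.3% were called higher, against 30.1% of all peaks of that level, and 17.3% lower, against 17.2%. Among the 52 between 200 and 1000, 17.3% were called higher (28.3% of all) and 21.2% lower (33.7%). The 43 peaks with at least 1000 normalised reads were called higher in 18.6% of cases, near the 19.7% of all peaks at that level. They were called lower in 32.6%, below the 41.1% of all. These shares are descriptions, since neighbouring peaks of a gene are not independent.

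Where the calls fell differed by position within the gene, also as a description. Of the 19 gene-end peaks, 1 was called higher and 5 lower (12.9% and 39.9% of all gene-end peaks), with a median log2 fold of -0.09 against -0.12 for all gene-end peaks. Of the 105 peaks inside the genes, 23 were higher and 17 lower (29.3% and 25.5% of all inside peaks), and these included 10 of the 12 rises and 4 of the 5 falls of at least 1.5-fold. The 69 flanking peaks gave 8 higher and 20 lower, or 11.6% and 29.0%, while 30.9% and 22.9% of all tested peaks outside genes and gene ends were called. These sets are unlike, because 40 of the 69 flanking peaks lay in or at another protein-coding gene. The shares are therefore not a like-for-like comparison. The plot of folds by gene shows this spread, with the rises of at least 1.5-fold inside the genes at Arid1b, Dpf3, Pbrm1, Smarca2 and Smarcc1, and the falls of that size inside the genes at Arid1a, Arid2, Dpf3 and Smarcc1.

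**Figure D1:**
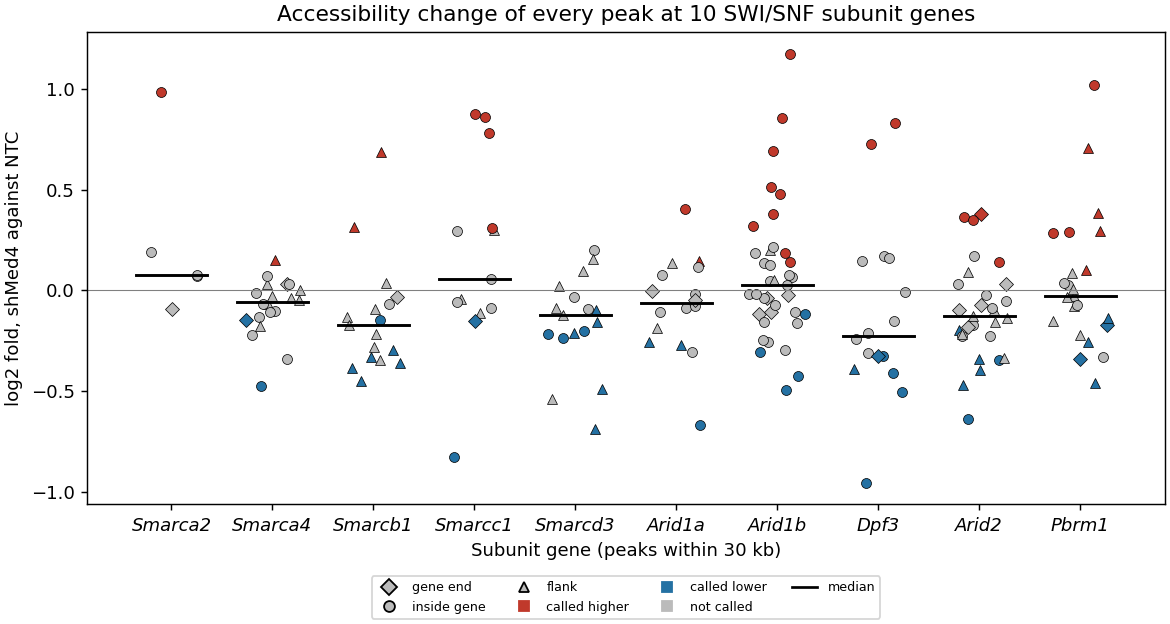
Log2 fold of shMed4 (mean of both hairpins) against NTC (vertical axis) for each of the 193 peaks, by subunit gene. Red peaks were called higher, blue lower and grey not called, the symbol gives the position in the gene or flank, and the black line is the gene's median. Most points lie close to 0, and the highest and lowest are the Arid1b peak at 1.17 and the Dpf3 peak at -0.95.

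Few peaks of the ATPase genes were called. Smarca2, the BRM ATPase, had 5 peaks, and its start peak at chr19:26604770-26605271, which contains the whole printed promoter window, carried 80.2% of the signal of its window and stood at the 98.1 percentile of all peaks in NTC. That peak read 3291, 3347 and 3373 normalised reads in the NTC libraries, 2934, 3163 and 3482 with #1 and 2849, 3163 and 3242 with #4. The groups overlapped, 1 library of #1 being the highest of all 9, and the log2 fold of -0.09 (SE 0.05) was not called (limma adjusted p = 0.096). The call changed with the scaling and with the libraries used. With libraries scaled to equal totals the same peak was called lower (log2 fold -0.11). Leaving out either of 2 single libraries also made it a call (-0.12 and -0.11). It was called in 6 of 19 settings, whose values ran from -0.16 to 0.01.

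The 1 Smarca2 peak that rose was a weak site deep inside the gene, at chr19:26763058-26763559 and 158 kb from the start. It held 45.2, 57.5 and 37.6 normalised reads in NTC, 94.4, 90.9 and 102 with #1 and 96.9, 76.7 and 93.5 with #4. Every hairpin library was above every NTC library, a 1.98-fold difference (log2 fold 0.98 with SE 0.17, adjusted p = 6.9e-06 by limma).

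Smarca4, which encodes the BRG1 ATPase, had 20 peaks, of which 1 was called higher and 2 lower. Its start peak at chr9:21615770-21616271 held 847, 901 and 885 normalised reads in NTC, 860, 853 and 882 with #1 and 707, 775 and 693 with #4. The NTC and #1 libraries overlapped while all 3 #4 libraries lay below the other 6. Over both hairpins the peak fell by 0.15 on the log2 scale (SE 0.05, with a limma adjusted p of 0.019). It was called with #4 (log2 fold -0.28 with SE 0.06, adjusted p = 0.00032 by limma) and not with #1 (-0.02, SE 0.06), and #4 differed from #1 by -0.26 (SE 0.06, with a limma adjusted p of 0.00098). The call over both hairpins was lost with centring on gene-end peaks (-0.04), and without NTC replicate 2 (-0.13) or NTC replicate 3 (-0.14).

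The other called Smarca4 peaks moved by small amounts. A flanking peak before the start, at chr9:21609808-21610309, held 1086 ± 54.9 normalised reads in NTC, 1262 ± 46.9 with #1 and 1154 ± 92.5 with #4, a log2 fold of 0.15 (SE 0.05, with a limma adjusted p of 0.015) that was not called without NTC replicate 3 (0.11). A weak peak 67.0 kb inside the gene, at chr9:21682813-21683314, went from 104 ± 8.62 to 77.4 ± 4.21 and 73.6 ± 22.7 (log2 fold -0.48 with SE 0.17, adjusted p = 0.019 by limma). That call was lost without NTC replicate 1, NTC replicate 2 or #4 replicate 3, and with centring on gene-end peaks. The signal of the whole Smarca4 window, of which 58.3% lies in or at other genes, differed from NTC by -0.04 (SE 0.02) and was not called. With centring on gene-end peaks it was called higher (0.07). The window was called in 4 of the 20 settings tried, whose values ran from -0.09 to 0.07.

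**Figure D2:**
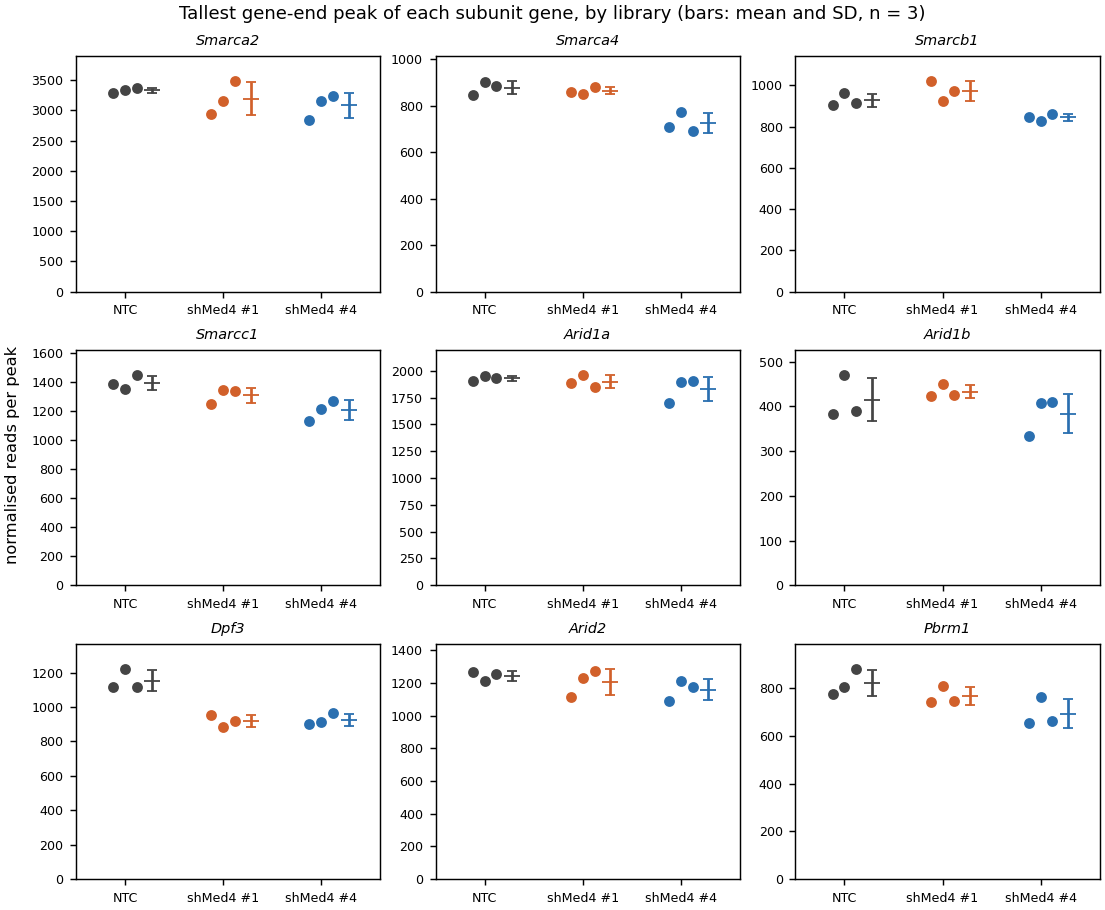
Normalised reads per peak (vertical axis, from 0) in each library for the gene-end peak with the highest mean at each subunit gene that has one, with NTC, shMed4 #1 and shMed4 #4 side by side and bars for the mean and SD (n = 3). At Dpf3 all 3 NTC libraries, 1119 to 1223, lie above all 6 hairpin libraries, 882 to 967, while at Arid1a, Arid1b, Arid2 and Smarca2 the groups overlap.

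Among the core subunits, Smarcc1 had more peaks called higher than lower, and Smarcb1 and Smarcd3 had more called lower. Of all tested peaks, 27.9% were called higher and 26.2% lower, and the rises at Smarcc1 were close to the former share. The same shares stand beside the counts of every other gene, which describe few peaks each. Smarcc1 encodes BAF155, a scaffold on which the complex assembles, and 4 of its 13 peaks rose and 2 fell. The rises lay in the first part of the gene and not at its start. The start peak at chr9:110131683-110132184 held 1387, 1350 and 1450 normalised reads in NTC, 1252, 1343 and 1338 with #1 and 1132, 1218 and 1270 with #4. The lowest NTC library was just above the highest hairpin library, and the peak fell by 0.15 on the log2 scale (SE 0.05, with a limma adjusted p of 0.0094). The call was lost with centring on gene-end peaks (-0.05) and without NTC replicate 3 (-0.12), and with regional shifts removed (the median deviation of each 10 Mb stretch of chromosome taken off in each library) the value was -0.24.

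Inside Smarcc1, 6.75 kb from the start, the peak at chr9:110138519-110139020 rose from 85.6, 79.1 and 79.4 normalised reads in NTC to 176, 173 and 135 with #1 and 150, 143 and 129 with #4. All hairpin libraries were above all NTC libraries (log2 fold 0.88 with SE 0.13, adjusted p = 3.1e-07 by limma). Its neighbour at chr9:110139064-110139565, named here after its values were seen, held 150 ± 14.8 in NTC, 339 ± 43.2 with #1 and 201 ± 44.0 with #4, so that it was called with each hairpin, at 1.16 (SE 0.13) and 0.39 (SE 0.13). It was higher with #1 than with #4 (log2 difference of #4 against #1 -0.77 with SE 0.13, adjusted p = 7.4e-06 by limma).

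The most open Smarcc1 site, 30.5 kb inside the gene at chr9:110162323-110162824, was chosen after its values were seen. It read 2533, 2487 and 2553 normalised reads in NTC, 3473, 3513 and 3482 with #1 and 2695, 2872 and 2849 with #4. The 3 groups did not overlap, with #1 highest and NTC lowest (log2 fold 0.31 with SE 0.04, adjusted p = 2.8e-08 by limma). Summed over the window, Smarcc1 held 6768 ± 119 normalised reads in NTC, 7849 ± 111 with #1 and 6877 ± 212 with #4. The window was called with #1 (log2 fold 0.21 with SE 0.03, adjusted p = 5.3e-06 by limma) and not with #4 (0.02, SE 0.03), and the hairpins differed by -0.19 (SE 0.03, with a limma adjusted p of 3.7e-05). The #4 value became a call with centring on gene-end peaks (0.13) and in the gene body alone (0.19).

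Smarcb1 encodes SNF5 (BAF47), the core subunit that contacts the nucleosome, and 2 of its 17 peaks rose and 6 fell. Its start peak at chr10:75921455-75921956 held 905, 961 and 914 normalised reads in NTC, 1020, 926 and 973 with #1 and 848, 826 and 861 with #4. The #4 libraries were the lowest 3 of the 9 while #1 overlapped NTC, and the difference between the hairpins was called (log2 difference of #4 against #1 -0.20 with SE 0.06, adjusted p = 0.006 by limma). Against NTC the peak was not called with either hairpin (0.07 with #1 and -0.13 with #4, SE 0.06 each) or over both (-0.03, SE 0.05).

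The highest fold near Smarcb1 was in the flank before its start, at Gm867, where the peak at chr10:75939840-75940341 held 43.6, 69.8 and 62.2 normalised reads in NTC, 97.6, 94.1 and 91.3 with #1 and 100, 87.0 and 88.2 with #4. NTC was lowest throughout (log2 fold 0.69 with SE 0.16, adjusted p = 0.00059 by limma). The lowest fold, at chr10:75878820-75879321 in the flank, was -0.45 (SE 0.19, with a limma adjusted p of 0.042) and was lost as a call without any of 5 single libraries: NTC replicate 2, NTC replicate 3, #1 replicate 1, #1 replicate 3 and #4 replicate 1. It was also lost with centring on gene-end peaks and with regional shifts removed. A stronger flanking peak in or at Mmp11 and Chchd10, at chr10:75932187-75932688 and chosen after its values were seen, fell from 1052 ± 72.0 to 872 ± 23.5 and 803 ± 67.6 (log2 fold -0.33 with SE 0.06, adjusted p = 6.4e-06 by limma). A strong peak inside the gene, chr10:75905697-75906198, also chosen after its values were seen, held 2774 ± 39.7 in NTC, 2710 ± 136 with #1 and 2312 ± 115 with #4, a call with #4 (log2 fold -0.26, SE 0.05) and not with #1 (-0.04, SE 0.05). Over the window the signal fell by 6.33% (log2 fold -0.09 with SE 0.03, adjusted p = 0.0058 by limma); the value was 0.01 with centring on gene-end peaks. The median of Smarcb1 peaks was -0.17 and that of all peaks within 5 Mb was -0.16, and the part of the surrounding region in the Smarcb1 values was not tested.

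Smarcd3 encodes BAF60C, the BAF60 paralog best known from heart and muscle, and was the only one of the 10 genes with no peak within 1 kb of a gene end. Its RefSeq promoter window, chr5:24601953-24602252, lies inside the gene as the gene table gives it and shared 0 bases with the nearest peak. None of its 17 peaks was called higher over both hairpins and 8 were called lower. The pair of strong peaks beside that window, chosen after their values were seen, fell: chr5:24602950-24603451 held 1304 ± 48.0 normalised reads in NTC, 1164 ± 25.7 with #1 and 1083 ± 66.2 with #4 (log2 fold -0.22 with SE 0.05, adjusted p = 0.00038 by limma). The nearer one, chr5:24601396-24601897, went from 454 ± 19.3 to 401 ± 24.9 and 370 ± 11.9 (log2 fold -0.24 with SE 0.07, adjusted p = 0.0039 by limma). At both, all NTC libraries were above all hairpin libraries.

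A pair of Smarcd3 peaks set #4 apart from #1. The peak inside the gene at chr5:24615811-24616312 held 235, 254 and 247 normalised reads in NTC, 246, 202 and 264 with #1 and 348, 345 and 316 with #4. The 3 #4 libraries stood above the other 6, and #4 exceeded #1 by 0.51 (SE 0.10, with a limma adjusted p of 8.8e-05); over both hairpins the value was 0.20 (limma adjusted p = 0.053). In the flank before the gene, chr5:24645378-24645879 held 101, 139 and 88.4 in NTC, 112, 105 and 91.3 with #1 and 70.9, 72.9 and 35.3 with #4, a difference of #4 against #1 of -0.84 (SE 0.21, with a limma adjusted p of 0.0017), or -0.50 without #4 replicate 3. Its call over both hairpins (-0.49 with SE 0.19, adjusted p = 0.025 by limma) was lost without NTC replicate 2 (-0.30), #1 replicate 3 (-0.45) or #4 replicate 3 (-0.32), with centring on gene-end peaks (-0.38) and with regional shifts removed (-0.41). The Smarcd3 window fell by 8.18% over both hairpins (log2 fold -0.12 with SE 0.03, adjusted p = 0.00037 by limma), and was no longer called with centring on gene-end peaks (-0.02). The regional median within 5 Mb was -0.11, and its part was not tested.

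Of the canonical BAF subunits, Arid1a, whose product is the largest BAF-specific DNA-binding subunit and a frequent target of mutation in cancer, had no call at its start and fell at 1 strong internal site. The peak that contains the printed start window, chr4:133756602-133757103, held 1885, 1800 and 1918 normalised reads in NTC, 1840, 1859 and 1964 with #1 and 1754, 1853 and 1923 with #4. The groups overlapped, with a log2 fold of 0.00 to 2 decimals (SE 0.04, with a limma adjusted p of 0.98). The tallest gene-end peak, just outside the gene at chr4:133757278-133757779, was likewise not called, with 1928 ± 24.1, 1899 ± 57.3 and 1833 ± 113 (log2 fold -0.05 with SE 0.05, adjusted p = 0.37 by limma).

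The Arid1a site that fell lay 69.5 kb inside the gene, at chr4:133687037-133687538. It read 1200, 1163 and 1072 normalised reads in NTC, 777, 740 and 886 with #1 and 599, 671 and 674 with #4. The 3 groups did not overlap, with NTC highest and #4 lowest (log2 fold -0.67 with SE 0.06, adjusted p = 4.2e-12 by limma), and #4 lay below #1 by 0.30 on the log2 scale (SE 0.07, with a limma adjusted p of 0.00046). The neighbouring peak, chr4:133688258-133688759, chosen after its values were seen, held 1520 ± 40.3 in NTC, 1329 ± 102 with #1 and 1567 ± 64.4 with #4 and was not called over both hairpins (log2 fold -0.08 with SE 0.05, adjusted p = 0.19 by limma).

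Nearer the start of Arid1a, a pair of adjacent peaks near 49 kb from the start were higher with #1. The peak at chr4:133707523-133708024 held 316, 201 and 236 normalised reads in NTC, 365, 384 and 341 with #1 and 301, 289 and 295 with #4 (log2 fold 0.41 with SE 0.09, adjusted p = 0.00043 by limma). The #1 libraries were above all others and 1 NTC library lay above all of #4. Without NTC replicate 2 the value was 0.26. Its neighbour at chr4:133706811-133707312 was called in opposite directions, from 294 ± 12.7 in NTC to 423 ± 10.7 with #1 (log2 fold 0.52 with SE 0.10, adjusted p = 2.9e-05 by limma) and 243 ± 42.7 with #4 (-0.29 with SE 0.10, adjusted p = 0.014 by limma). Over its window Arid1a fell by 5.09% (log2 fold -0.08 with SE 0.02, adjusted p = 0.011 by limma); the call was lost without NTC replicate 1 (-0.06), and centring on gene-end peaks gave 0.03.

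Arid1b, the paralog of Arid1a and mutually exclusive with it in a complex, held the largest rise among the 193 peaks. Near the far end of this long gene, 333 kb from the start, the peak at chr17:5327408-5327909 read 98.5, 102 and 94.1 normalised reads in NTC, 303, 208 and 270 with #1 and 189, 201 and 187 with #4. The 3 groups did not overlap, #1 being highest (log2 fold 1.17 with SE 0.11, 2.26-fold, adjusted p = 2.3e-11 by limma). It was called with #1 (1.38, SE 0.13) and with #4 (0.97, SE 0.13), and the hairpins differed by -0.42 (SE 0.13, with a limma adjusted p of 0.0083).

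A second Arid1b site, 45.8 kb from the start at chr17:5039806-5040307, rose with 1 hairpin and was not called with the other. It held 86.4, 67.8 and 67.9 normalised reads in NTC, 206, 151 and 167 with #1 and 94.3, 71.6 and 81.1 with #4. The #1 libraries lay above all 6 others, and #4 overlapped NTC. The log2 fold was 1.23 with #1 (SE 0.17, with a limma adjusted p of 1.1e-07) and 0.15 with #4 (SE 0.17, with a limma adjusted p of 0.47), and #4 differed from #1 by -1.07 (SE 0.17, with a limma adjusted p of 2.4e-06), the largest difference between the hairpins among member peaks with a mean of at least 50.

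Some already open Arid1b sites also rose, and these were chosen after their values were seen. At chr17:5255378-5255879 the level climbed from 1996 ± 27.5 normalised reads in NTC to 2753 ± 143 with #1 and 2452 ± 56.1 with #4 (log2 fold 0.38 with SE 0.04, adjusted p = 1.3e-09 by limma). At chr17:5206796-5207297 it was 1467 ± 54.8 in NTC, 1858 ± 15.0 with #1 and 1799 ± 93.6 with #4 (log2 fold 0.32 with SE 0.05, adjusted p = 2.4e-07 by limma). At both, every hairpin library was above every NTC library. Not all open sites rose. The most open Arid1b peak in NTC, chr17:5189953-5190454, was called lower (log2 fold -0.12 with SE 0.04, adjusted p = 0.025 by limma). It held 2668 ± 107 in NTC, 2419 ± 42.9 with #1 and 2506 ± 163 with #4. The open peak at chr17:5234914-5235415 was not called (log2 fold 0.07, SE 0.05). The lowest fold was at chr17:5108039-5108540, from 125 ± 8.01 to 82.1 ± 9.28 and 96.1 ± 19.1 (log2 fold -0.50 with SE 0.15, adjusted p = 0.0043 by limma).

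In all, 9 of 37 Arid1b peaks rose and 4 fell, and the window rose by 8.25% (log2 fold 0.11 with SE 0.02, adjusted p = 0.00045 by limma). The start was not among them: the gene-end peak at chr17:4994090-4994591 held 384, 470 and 389 normalised reads in NTC, 423, 449 and 425 with #1 and 335, 407 and 411 with #4, with the groups overlapping (log2 fold -0.02 with SE 0.08, adjusted p = 0.83 by limma). All peaks within 5 Mb of Arid1b had a median log2 fold of 0.08, against 0.03 for its own 37, and the part of the region was not tested.

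**Figure D3:**
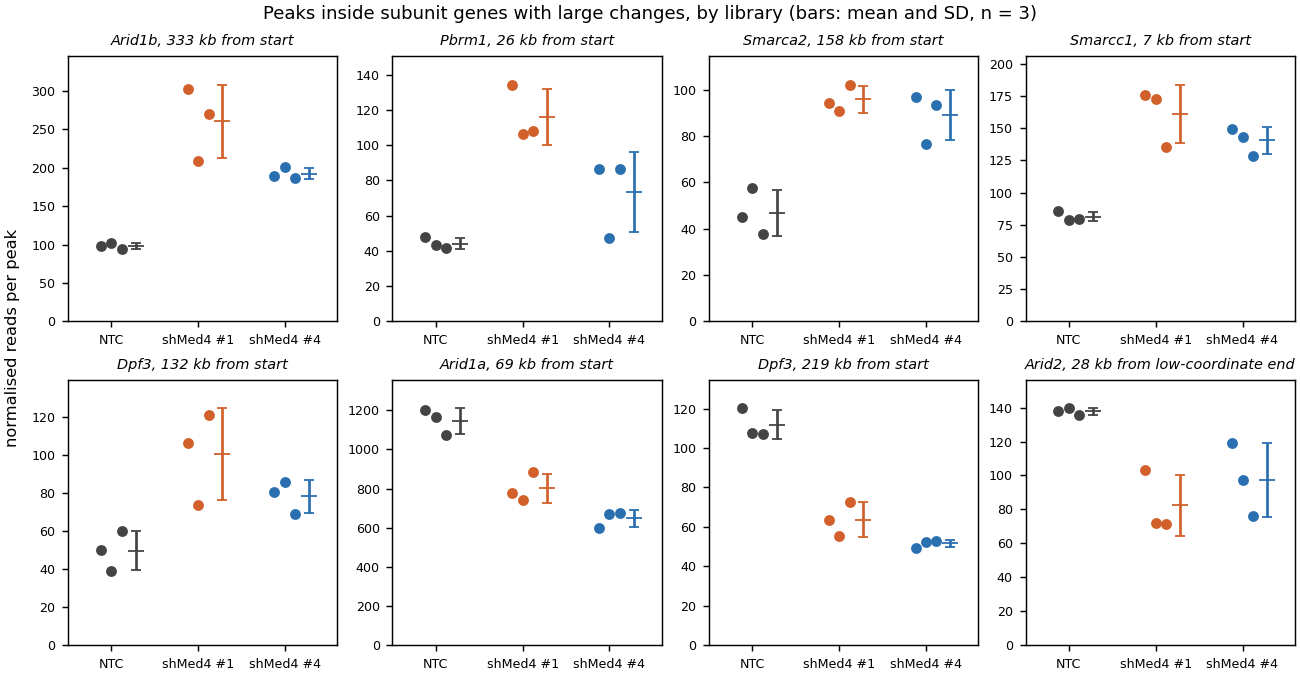
Normalised reads per peak (vertical axis, from 0) in each library for 8 peaks inside the subunit genes, with NTC, shMed4 #1 and shMed4 #4 side by side and bars for the mean and SD (n = 3). The Arid1b peak 333 kb from its start rises from 94.1 to 102 in NTC to 187 to 303 with the hairpins, and the Arid1a peak 69.5 kb from its start falls from 1072 to 1200 to 599 to 886.

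Dpf3 encodes BAF45C, a PHD finger subunit that reads histone modifications. It was the only member whose peak over the promoter window was called lower with each hairpin. The start peak at chr12:83487608-83488109, which contains the whole printed promoter with its 3 CCAAT motifs, held 1119, 1223 and 1119 normalised reads in NTC, 953, 882 and 917 with #1 and 899, 911 and 967 with #4. Every NTC library was above every hairpin library, and the hairpins overlapped each other. The peak fell by 0.32 on the log2 scale (SE 0.05, with a limma adjusted p of 1.8e-06), by 0.33 with #1 and by 0.32 with #4 (SE 0.06 each), and #4 and #1 differed by 0.01 (SE 0.06, with a limma adjusted p of 0.89). Peaks within 5 Mb had a median log2 fold of -0.21, as did all peaks of chromosome 12, and with regional shifts removed the start peak stood at -0.13 and was still called (limma adjusted p = 0.029).

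Inside Dpf3 weak sites moved both ways. The peak 219 kb from the start, at chr12:83268593-83269094, read 120, 108 and 107 normalised reads in NTC, 63.2, 55.2 and 72.6 with #1 and 49.3, 52.4 and 52.9 with #4. NTC was highest throughout, and this was the largest fall among the 193 peaks (log2 fold -0.95 with SE 0.17, adjusted p = 7.2e-06 by limma). The peak at 132 kb, chr12:83355092-83355593, rose from 50.0, 39.0 and 59.7 in NTC to 106, 73.8 and 121 with #1 and 80.4, 85.7 and 68.8 with #4 (log2 fold 0.83 with SE 0.18, adjusted p = 0.00019 by limma), again with no overlap.

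A Dpf3 peak 258 kb from the start, at chr12:83229461-83229962 and chosen after its values were seen, rose more with #1. The level was 264 ± 13.6 normalised reads in NTC, against 519 ± 25.3 with #1 and 370 ± 54.2 with #4 (log2 fold 0.72 with SE 0.08, adjusted p = 5.5e-10 by limma), with #4 below #1 by 0.49 on the log2 scale (SE 0.09, with a limma adjusted p of 2.7e-05). Of the 16 Dpf3 peaks 2 rose and 6 fell. The window fell by 7.10% (log2 fold -0.11 with SE 0.03, adjusted p = 0.0029 by limma). With peaks centred in the gene body alone, which leaves out the start peak, the window stood at 0.02, and with centring on gene-end peaks at 0.00 to 2 decimals; neither was called.

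**Figure D4:**
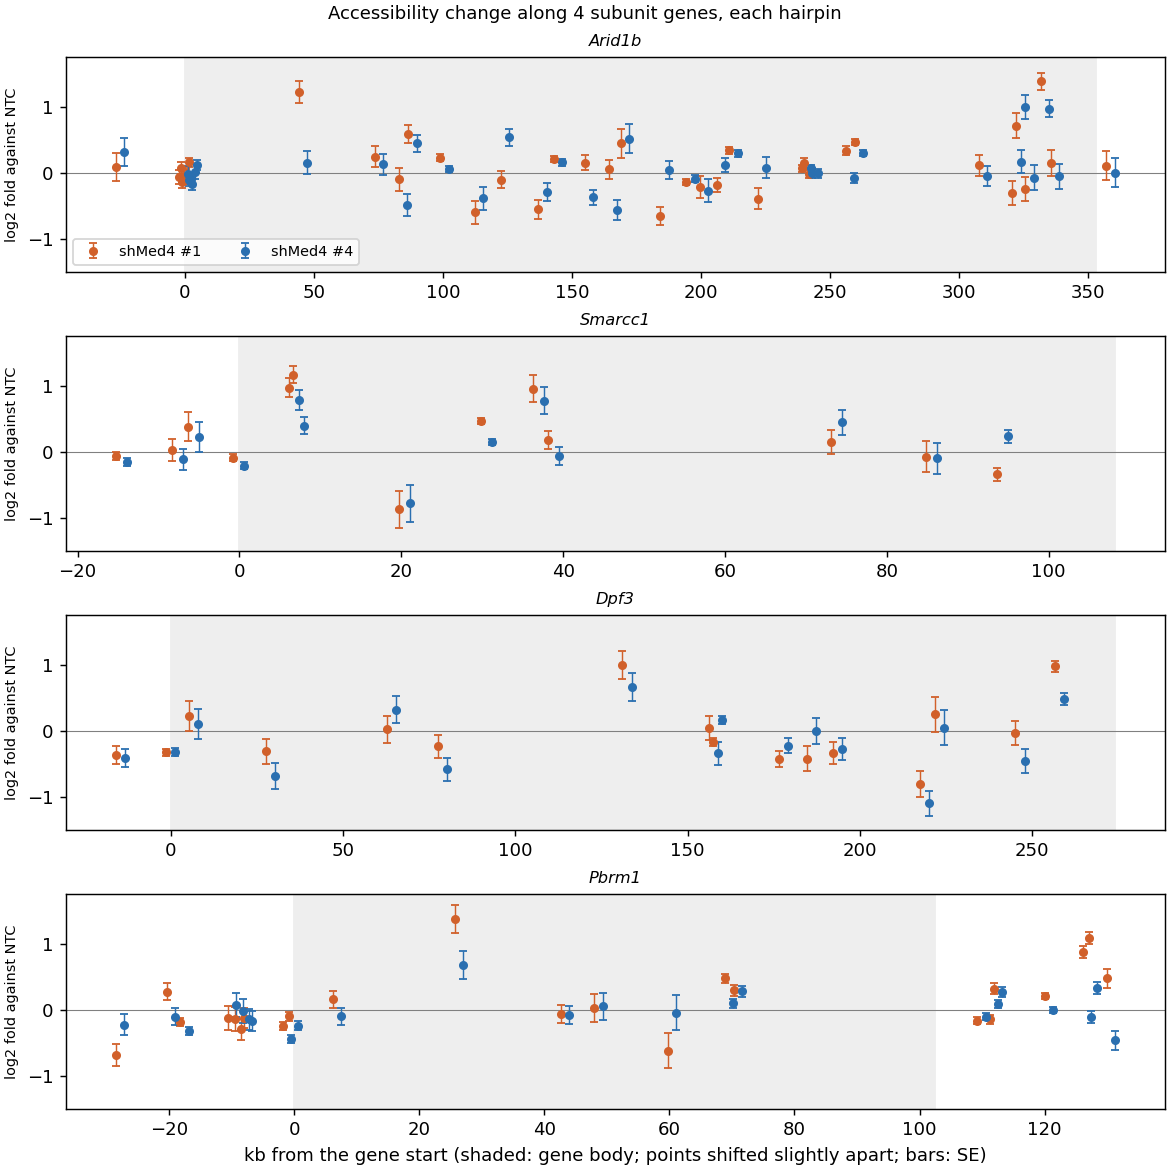
Log2 fold of shMed4 #1 (orange) and of shMed4 #4 (blue) against NTC (vertical axis, bars are the SE) at each peak of Arid1b, Smarcc1, Dpf3 and Pbrm1, against distance in kb from the gene's start (horizontal axis, gene body shaded, points of the hairpins shifted slightly apart). The peaks at the start of Arid1b lie near 0, while its peak at 333 kb reaches 1.38 with #1 and 0.97 with #4.

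The PBAF subunits differed in where their peaks changed. Arid2, the ARID subunit of PBAF, has no window in the promoter table, and its strand was not taken from any source here. The gene-end peak at its low-coordinate end, chr15:96286547-96287048, which also lies at Gm38469, held 1268, 1211 and 1257 normalised reads in NTC, 1115, 1232 and 1272 with #1 and 1091, 1215 and 1177 with #4. The groups overlapped (log2 fold -0.08 with SE 0.05, adjusted p = 0.22 by limma), and the value was -0.15 and called with regional shifts removed. The peak at the other end, chr15:96405528-96406029, was the single member gene-end peak called higher. It read 731, 693 and 669 in NTC, 1016, 1009 and 985 with #1 and 838, 804 and 826 with #4, so that the 3 groups were apart with #1 highest (log2 fold 0.38 with SE 0.05, adjusted p = 1.1e-07 by limma).

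A weak peak inside Arid2, at chr15:96315633-96316134, fell. It held 138, 140 and 136 normalised reads in NTC, 103, 72.2 and 71.5 with #1 and 119, 97.2 and 75.8 with #4, with NTC highest (log2 fold -0.64 with SE 0.15, adjusted p = 0.00053 by limma). In the flank at Gm38469, chr15:96265888-96266389 went from 153 ± 34.4 to 79.8 ± 9.04 with #1 (log2 fold -0.92 with SE 0.16, adjusted p = 5.6e-06 by limma) and 149 ± 12.1 with #4 (-0.02, SE 0.16), a difference between the hairpins of 0.89 (SE 0.16, with a limma adjusted p of 1.4e-05). Its call over both hairpins (-0.47) was lost without NTC replicate 1 (-0.29). Arid2 had 4 peaks higher and 6 lower of 29, of which 13 lay in or at other genes. Its window, with 63.1% of the signal in or at other genes, was not called (log2 fold -0.01, SE 0.02). With centring on gene-end peaks the window was called higher (0.09).

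Pbrm1 encodes BAF180 (polybromo), the PBAF subunit with several bromodomains that bind acetylated histones. It shares its start with Gnl3, and 94.7% of the signal of its window lies in or at other genes, so its counts describe a gene-dense neighbourhood. The start peak at chr14:31018789-31019290 held 777, 806 and 882 normalised reads in NTC, 741, 810 and 748 with #1 and 654, 762 and 663 with #4. The groups overlapped, and the log2 fold was -0.17 (SE 0.06, with a limma adjusted p of 0.014). The call was lost without NTC replicate 3 (-0.12) and with centring on gene-end peaks (-0.07). The adjacent peak at chr14:31017781-31018282, on the Gnl3 side and chosen after its values were seen, fell with no overlap from 840 ± 15.2 to 709 ± 24.6 and 619 ± 12.3 (log2 fold -0.34 with SE 0.05, adjusted p = 1.7e-06 by limma).

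Inside Pbrm1, 26.3 kb from the start, the weak peak at chr14:31045220-31045721 rose from 47.6, 43.1 and 41.7 normalised reads in NTC to 134, 106 and 108 with #1 and 86.5, 47.3 and 86.4 with #4. A #4 library lay just below the highest NTC library (log2 fold 1.02 with SE 0.18, adjusted p = 1.4e-05 by limma), and #1 was above #4 (log2 difference of #4 against #1 -0.70 with SE 0.21, adjusted p = 0.0078 by limma).

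The peaks of the Pbrm1 window with the largest differences between hairpins lay in Stab1, a scavenger receptor gene in the flank. At chr14:31145670-31146171 the level was 237, 236 and 252 normalised reads in NTC, 449, 427 and 459 with #1 and 227, 231 and 215 with #4. The #1 libraries stood far above the others and #4 lay just below NTC (log2 fold 0.88 with #1 and -0.11 with #4, SE 0.09 each; #4 against #1 -0.98 with SE 0.09, adjusted p = 3e-11 by limma). At chr14:31149428-31149929, with 127, 127 and 137 in NTC, 190, 199 and 158 with #1 and 110, 76.7 and 98.8 with #4, the hairpins were called in opposite directions (0.48 and -0.47, SE 0.15 each). The difference was -0.94 (SE 0.15, with a limma adjusted p of 2.2e-06). Of the 23 peaks of the window 7 rose and 5 fell, and its sum was not called over both hairpins (log2 fold 0.00, SE 0.03). It was called higher with #1 (0.07, SE 0.03) and lower with #4 (-0.07, SE 0.03), and each of these calls was lost without NTC replicate 1, 2 or 3. The #1 call was also lost without #1 replicate 3, and the #4 call without #1 replicate 1, #1 replicate 2 or #4 replicate 1.

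With each hairpin on its own against the shared NTC libraries, #1 called 35 member peaks higher and 38 lower (27.9% and 24.9% of all tested peaks, 52.7% in all), and #4 called 29 higher and 46 lower (26.2% and 24.3%, 50.4% in all). The direct test of #4 against #1 called 19 member peaks higher and 39 lower (20.4% and 21.2% of all tested peaks, 41.6% in all), with a median of -0.05 against 0.00 to 2 decimals over all tested peaks. By gene, the largest counts lower with #4 than with #1 were 8 of 23 at Pbrm1, 7 of 16 at Arid1a and 7 of 37 at Arid1b. In 3 peaks, the ones named above at Arid1a and Stab1 and another inside Dpf3 at chr12:83328859-83329360 (-0.18 with #1 and 0.16 with #4), both hairpins were called in opposite directions and the difference between them was called as well. The share of all tested peaks that meet this rule is not given here, so the 3 cannot be read as many or few.

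Summed over each gene's window, the changes were small. Over both hairpins 2 of the 10 windows were called higher, Smarcc1 (8.54% more) and Arid1b, and 4 lower, Smarcd3, Dpf3, Smarcb1 and Arid1a, while 29.6% and 37.4% of 19,066 protein-coding windows were called higher and lower, 67.0% in all. With #1 the windows split 3 higher and 2 lower (30.9% and 33.0% of all, 63.9% together), and with #4 1 higher and 5 lower (26.6% and 37.6%, 64.3% together). For #4 against #1 none was higher and 5 were lower (22.5% and 30.3%, 52.8% together): Smarcb1, Smarcc1, Arid1a, Arid1b and Pbrm1. The Arid1b call (-0.07) was lost without any single NTC library, without #1 replicate 1 or 3 and without #4 replicate 1 or 2, and that of Arid1a (-0.08) without #1 replicate 3. With centring on gene-end peaks, none of the 10 windows was called lower in either hairpin or in both. The share of all protein-coding windows called under that centring is not given here.

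The summed windows of Smarca4 and Smarcb1 were the closest pair over the 9 libraries (Pearson r = 0.93), and those of Arid1b and Dpf3 the least alike (r = -0.67). These libraries share their normalisation and fall into 3 groups, so r describes how the sums moved and has no test here. Of all 19,066 windows that do not overlap theirs, the most alike to Smarca2 were Dnajc8 (r = 0.97), Atpif1 (0.96) and Cnn1 (0.96), and to Smarca4 were Diras1, Cenpx and Nectin4 (0.98 each). Dnajc8 and Atpif1 both lie on chromosome 4. Overlap of these windows with each other was not excluded, so they may not be separate matches.

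The remaining subunit genes of the complexes, a list of 18, had 235 peaks, of which 31 were called higher and 77 lower, beside 27.9% and 26.2% of all tested peaks. Their tallest gene-end peaks, present at 16 genes, were called lower at 8 and higher at none, with a median log2 fold of -0.14. At the members, with 9 such peaks, 4 were lower (Dpf3, Pbrm1, Smarca4 and Smarcc1) and none higher, with a median of -0.09. Among the 18, the lowest called were Phf10, a PBAF subunit, at -0.31 (SE 0.08, with a limma adjusted p of 0.0011), Smarce1, the BAF57 core subunit, at -0.24 (SE 0.06, with a limma adjusted p of 0.0014), and Brd9, the bromodomain subunit of non-canonical BAF that shares its start with Trip13, at -0.24 (SE 0.05, with a limma adjusted p of 8.5e-05). A list of 20 genes of other remodellers (the ISWI, CHD, NuRD and INO80 families) had 306 peaks, with 36 called higher and 122 lower. Of its 17 tallest gene-end peaks, 9 were lower and none higher, with a median of -0.12. All 3 shares were read beside gene-end peaks in general, of which 39.9% were called lower and 12.9% higher, with a median of -0.12. These sets are unlike, because the lists hold only the tallest gene-end peak of each gene and the general share covers every gene-end peak.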

How the data were processed

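Read signal in ATAC-seq peaks was compared in 9 libraries, 3 per group. The authors deposited a normalised signal, a count of reads per peak and library that was scaled with DESeq2 according to what the file is called. Trim Galore, BWA, MACS2, Subread and featureCounts appear in the submitters' processing notes, as do the builds GRCm38 and mm10. Versions and peak calling settings are not given in the sources used here. Coordinates follow the names of the deposited peaks, and no source says whether they count from 0.

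The 146,729 peaks whose mean reached 10 were tested as log2(value + 1) with limma (3.58.1, R 4.3.3, lmFit and eBayes with a trend), in a single fit over all groups with no covariate. Sums over gene windows were fitted alike. The scripts were tested on simulated data. Replicate numbers were not used to pair the libraries in the main fit. Deviations of same-numbered libraries correlated at -0.01 to 0.07 and of others at -0.10 to 0.04. Correlations this small and overlapping cannot exclude a pairing. The spread behind each p-value is that between libraries of a group, which may be technical. Depth was 44.8 to 98.9 M reads in peaks, and read numbers inferred from the step size of each column were used only for depth and for comparing libraries.

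The members and lists were chosen with earlier results of these data known. Named were the tallest gene-end peak of each gene, its highest and lowest fold over both hairpins (mean of at least 50) and the 5 largest differences between hairpins. Among other subunits the rule took the 3 highest and 3 lowest called gene-end peaks. Gene positions came from the RefSeq gene list, which gives no strand, so strand was read from the RefSeq promoter windows and both gene ends were treated alike. Exon structure was not used here. One of the marker genes examined is not reported here. Alternatives varied the pseudocount, filter, scaling, threshold, window, model and libraries used. Regional shifts, the median deviation of each 10 Mb bin per library, were removed as an alternative added after the data were seen. Tables and figures were made with data.table (1.17.8), Python 3.11.15, numpy 2.4.6, pandas 2.3.3 and matplotlib 3.10.9.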

Additional observations from a re-analysis of the deposited data

Results flagged for a closer look

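Some subunit peaks and windows differed between the 2 hairpins themselves, tested as #4 against #1 in the same limma fit, without the NTC libraries in the contrast. The values are log2 differences of #4 against #1, and a negative value means less signal with #4.

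Most were lower with #4. At Arid1b they were -1.07 at chr17:5039806-5040307 and -0.42 at chr17:5327408-5327909, the site of the largest rise over both hairpins. In the Pbrm1 window they were -0.98 at chr14:31145670-31146171 and -0.94 at chr14:31149428-31149929, both in Stab1, and -0.70 at chr14:31045220-31045721 inside Pbrm1. Both named internal Arid1a peaks, chr4:133687037-133687538 and chr4:133707523-133708024, gave -0.30. The Arid2 peak at its high-coordinate end gave -0.29, and the start peaks of Smarca4 and Smarcb1 gave -0.26 and -0.20. The Smarcd3 flank peak at chr5:24645378-24645879 gave -0.84.

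In 4 peaks #4 was higher: 0.89 at the Arid2 flank peak chr15:96265888-96266389, 0.58 at the Smarcb1 flank peak chr10:75878820-75879321, 0.51 inside Smarcd3 at chr5:24615811-24616312, and 0.46 at chr14:30991023-30991524 in the Pbrm1 flank. Summed over windows, Smarcc1 gave -0.19, Pbrm1 -0.14, Smarcb1 -0.10, Arid1a -0.0818 and Arid1b -0.0678.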

How the results depend on the processing

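Calls and window folds moved with the scaling and with the choice of peaks. The counts in this section are given without shares of all tested peaks or windows under the same setting. They are not read as particular to the members. Centring libraries on gene-end peaks left 18 member peaks called lower over both hairpins, 19 with #1 and 17 with #4. It left 0 windows lower in each of these comparisons, with 5 higher over both hairpins, 8 with #1 and 3 with #4. Under that centring window folds turned positive: Arid1a 0.0292 (both hairpins) and 0.0671 (#1), Arid2 0.0919 and 0.0753, Smarca4 0.0686 and 0.0897, Smarcb1 0.0101 and 0.0585, and Pbrm1 0.039 (#4). Centring away from gene ends left 0 windows higher with #4 and 3 lower in #4 against #1. Equal totals gave 29 member peaks higher and 52 lower, 6 windows lower with #1, and 1 window higher in #4 against #1. Removing regional shifts, an alternative added after the data were seen, gave 32 and 36. Peaks in the gene body alone were called lower 17 times over both hairpins, 18 with #1, 22 with #4 and 24 in #4 against #1, where 9 were higher. Body-only windows were called higher 4 times over both hairpins and 2 with #4, where 3 were lower. They changed sign for Dpf3 (0.0159 over both, 0.0207 with #1 and 0.0112 with #4), Pbrm1 with #4 (0.112) and Smarca2 over both (0.15). The mean of log2 values in place of the sum turned Smarca2 to 0.25 over both hairpins and 0.22 with #4, and left 2 windows lower in #4 against #1. Fitting the compared groups only left 3. A flank of 10 kb, or leaving out peaks of other genes, gave 27 member peaks lower over both hairpins, and the latter 25 with #1. Each of these restrictions, like the gene body alone, takes fewer than the 193 peaks, and leaving out peaks of other genes drops 47 of them. Their counts are therefore not comparable with the 32 higher and 42 lower of the main fit. At an adjusted p under 0.01, 25 were lower with #1, 27 with #4, and 10 higher in #4 against #1. Centring and equal totals each took a constant off each library's log2 values, which moves all folds of a comparison alike. Smaller sets of peaks and the stricter threshold lower the counts by design. The causes of the other changes were not tested.

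With the replicate block, 35 member peaks were higher and 48 lower over both hairpins, 36 and 41 with #1, 30 and 48 with #4, and 19 and 40 in #4 against #1. Of the named peaks it added calls over both hairpins at the Smarca2 start (limma adjusted p = 0.041) and at Smarcd3 chr5:24615811-24616312 (limma adjusted p = 0.047). Whether same-numbered libraries share more than the number is not known here.

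Leaving out each library in turn gave 26 to 34 member peaks higher and 31 to 47 lower over both hairpins, 31 to 36 and 28 to 44 with #1, 21 to 30 and 34 to 47 with #4, and 12 to 21 and 28 to 45 in #4 against #1, where 12 came without #1 replicate 1. Windows lower with #1 numbered 1 to 2 and higher with #4 0 to 1. The planned count tests were not run. Peaks near 50 normalised reads have the widest errors.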
